A study of Mus musculus with 12 samples.

Results

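Interferon-stimulated genes are the genes that cells switch on when interferons bind their receptors. A set of 39 of them was followed here by gene symbol in RNA-seq of OT-I CD8+ T cells, out of 55536 annotated genes in the count table, and all 39 had enough counts to be tested. OT-I cells carry a transgenic T cell receptor for a peptide of ovalbumin and came from OT-1 Tg C57BL/6J mice, which the study's methods describe as deficient in Rag1 or Rag2. In the Ag group (5 libraries) and the Ag+Costim group (5 libraries) the cells had been transferred into C57BL/6J recipients, which then received the peptide, with rat IgG in Ag and with agonist antibodies against CD134 (OX40) and CD137 (41BB) in Ag+Costim. They were sorted from spleen and lymph nodes after 4 days by the labels, and the study's methods give a slightly shorter time. The Naive group (2 libraries) came from OT-I mice without transfer, so the effects of transfer, of the host and of antigen cannot be told apart in any comparison with Naive. The labels give no age, and all 3 groups share the transgenic receptor and the C57BL/6 background. That background carries a defective allele of Mx1, so a level of Mx1 RNA says nothing of a working Mx1 protein.

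Type I interferons (IFN-alpha and IFN-beta) signal through the receptor chains IFNAR1 and IFNAR2 and the kinases JAK1 and TYK2. These kinases activate STAT2, which acts with IRF9 in a complex that binds the interferon-stimulated response element (ISRE). Type II interferon (IFN-gamma), which activated CD8+ T cells themselves make, signals through a different receptor and acts on genes through the gamma-activated site (GAS). Many interferon-stimulated genes are also induced by other signals, among them IRF1, NF-kB and the T cell receptor itself.

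The promoter sequences are shown first, since the ISRE is the site by which type I interferon acts on many of these genes. RefSeq promoter windows (GRCm38.p6, 250 bases before to 50 bases after the start) were matched for 27 of the 39 genes. Not matched were Zbp1, Oas2, Usp18, Parp9, Parp14, Mx1, Gbp4, Gbp6, Ly6a, Ly6e, Rtp4 and Ifi27l2a. The ISRE core, searched as GAAANNGAA on both strands, was found for 18 of the 27 (66.7%) and for 9.76% of all 27025 genes with a window. The GAS, searched as TTCNNNGAA, which is its own reverse complement, was found for 9 of the 27 (33.3%) and for 9.55% of all genes. Of the members higher in Ag+Costim than in Ag, 8 of the 9 with a window held the ISRE core, against 2 of 7 among the members that were lower and 8 of 11 among those not called. The GAS was found in 3 of 9, 3 of 7 and 3 of 11 of the same members. In Ag against Naive the ISRE core was found in 3 of 6 members that were higher, 5 of 7 that were lower and 10 of 14 not called. In Ag+Costim against Naive it was found in 6 of 6, 0 of 1 and 12 of 20. These are matches of letters in 1 window per start and not measured binding, and no test was made of the counts. The lines below give 30 bases around the first ISRE core match for the 10 genes with a match that were called in Ag+Costim against Ag. They are read 5′ to 3′ on the strand of the gene, with the match in capitals. Windows of Oas3, Ifih1, Eif2ak2, Bst2, Gbp3, Ifit1 and Ifit3 hold at least 1 further match that is not in capitals here.
Higher in Ag+Costim than in Ag.
Oas3, chr5:120777715-120777744, minus strand: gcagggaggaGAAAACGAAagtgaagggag
Ifih1, chr2:62646348-62646377, minus strand: agaattcgcgTTCCCTTTCctgtttctcac
Trim25, chr11:88999384-88999413, plus strand: gcccctcctgTTCAGTTTCgattccttcct
Eif2ak2, chr17:78882535-78882564, minus strand: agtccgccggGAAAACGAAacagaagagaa
Stat2, chr10:128270267-128270296, plus strand: gcaccctggtTTCAGTTTCctttccctaga
Gbp3, chr3:142559990-142560019, plus strand: aggacacagtTTCAGTTTCtatttcccaga
Gbp7, chr3:142530274-142530303, plus strand: tgtgtgcagtTTCAGTTTCagttctccatc
Bst2, chr8:71537583-71537612, minus strand: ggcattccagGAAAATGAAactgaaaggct
Lower in Ag+Costim than in Ag.
Ifit1, chr19:34640770-34640799, plus strand: aactgcaggcTTCAGTTTCactttccagtc
Ifit3, chr19:34583364-34583393, plus strand: agtggtaagtTTCACTTTCctcttctggtt
The window of Dtx3l was the only 1 of the 9 without the letters of the ISRE core, and among the members that fell the windows of Samhd1, Isg20, Xaf1, Irf9 and Ifi35 were without them.

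Libraries held 24006053 to 49294934 counts, the lowest being Ag 4, and the 39 genes took 0.441% to 0.78% of the counts of a library. Levels of 1 gene between libraries are given as CPM, counts scaled to library size with TMM and to a fixed total, and levels between genes as FPKM, which also divides by length. The identity of the cells was checked on marker genes. Summed over 7 T cell markers the level was 9596 to 10331 CPM in Naive, 7620 to 11447 CPM in Ag and 4320 to 5964 CPM in Ag+Costim, while Cd4 stayed at or under 2.44 CPM. Summed over 5 B cell markers it was 27.2 to 29.7, 108 to 155 and 22.5 to 57.7 CPM, and Pax5 had no counts in Naive. Erythroid markers (5 genes) ranged over 149.6 to 2068 CPM in Naive, 625 to 6373 CPM in Ag and 14.5 to 222 CPM in Ag+Costim. Myeloid markers (7 genes) summed to 28.9 to 107, 43.6 to 162 and 77.4 to 121 CPM and NK cell markers (2 genes) to 11.7 to 13.5, 6.45 to 14.5 and 1.22 to 3.30 CPM. Markers of plasmacytoid dendritic cells (6 genes), the main makers of type I interferon, summed to 286 to 307 CPM in Naive, 101 to 141 CPM in Ag and 172 to 246 CPM in Ag+Costim. That list holds Bst2, one of the 39, and Irf8, and its marker Siglech had no counts in Naive or Ag and 8 counts in each of 2 Ag+Costim libraries. The sums of the T cell, B cell, NK cell, erythroid and plasmacytoid dendritic cell markers did not overlap between Ag and Ag+Costim, and those of the myeloid markers did. The plasmacytoid dendritic cell sum was lowest in Ag, but it counts Bst2, itself one of the 39. Bst2 alone was at 82.4 to 86.9 CPM in Naive, 41.1 to 75.6 CPM in Ag and 70.4 to 117 CPM in Ag+Costim. Irf8, given below, was also higher in Ag+Costim than in Ag, so between these groups the sum holds in part genes reported here. In Naive, Bst2 was 82.4 to 86.9 CPM of a sum of 286 to 307 CPM, so most of that sum came from the other markers. The part of these markers in the results below was not tested. In sorted bulk cells, a lower level can come from fewer cells that express a gene or from less RNA per cell, and these cannot be told apart.

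The 39 genes moved in both directions with costimulation, as did all genes tested. Against Ag, 12 of the 39 genes rose and 9 fell in Ag+Costim, where 26.6% of all 18817 genes tested rose and 26.5% fell (edgeR, adjusted p below 0.05). Their median log2 fold change was 0.17, with -0.05 over all genes, and they ranged from -1.53 for Isg20 to 3.11 for Oas3. In Ag against Naive, 9 rose and 8 fell, where 24.2% of all genes rose and 22.5% fell, with a median of 0.12 (0.02 over all genes). In Ag+Costim against Naive, 11 rose and 2 fell, where 26.9% of all genes rose and 25.4% fell, with a median of 0.15 (-0.02 over all genes). With upper-quartile scaling 10 rose and 15 fell in Ag+Costim against Ag, where 21.6% of all genes rose and 33.7% fell. The median of the 39 was then -0.03, where that of all genes moved to -0.24. Limma on log2(FPKM + 1) gave 10 and 13 with a median of -0.08, where 24.9% of all genes rose and 28.7% fell. The 2 falls of Ag+Costim against Naive are 2 of 39 genes. With upper-quartile scaling 6 of the 39 fell, where 30% of all genes fell. In limma on log2(FPKM + 1) 7 fell (35.8% of all genes), and without Ag+Costim 3 5 fell (23.5% of all genes). Without Ag+Costim 3 the median of Ag+Costim against Ag became -0.03. The comparisons share libraries, so a gene that is low in Ag is drawn to rise against Ag and to fall against Naive at once. The genes not called in any comparison were Irf7, Zbp1, Rsad2, Isg15, Trim30a, Parp14, Gbp2, Gbp4, Gbp6, Igtp, Irgm1 and Rtp4.

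**Figure D1:**
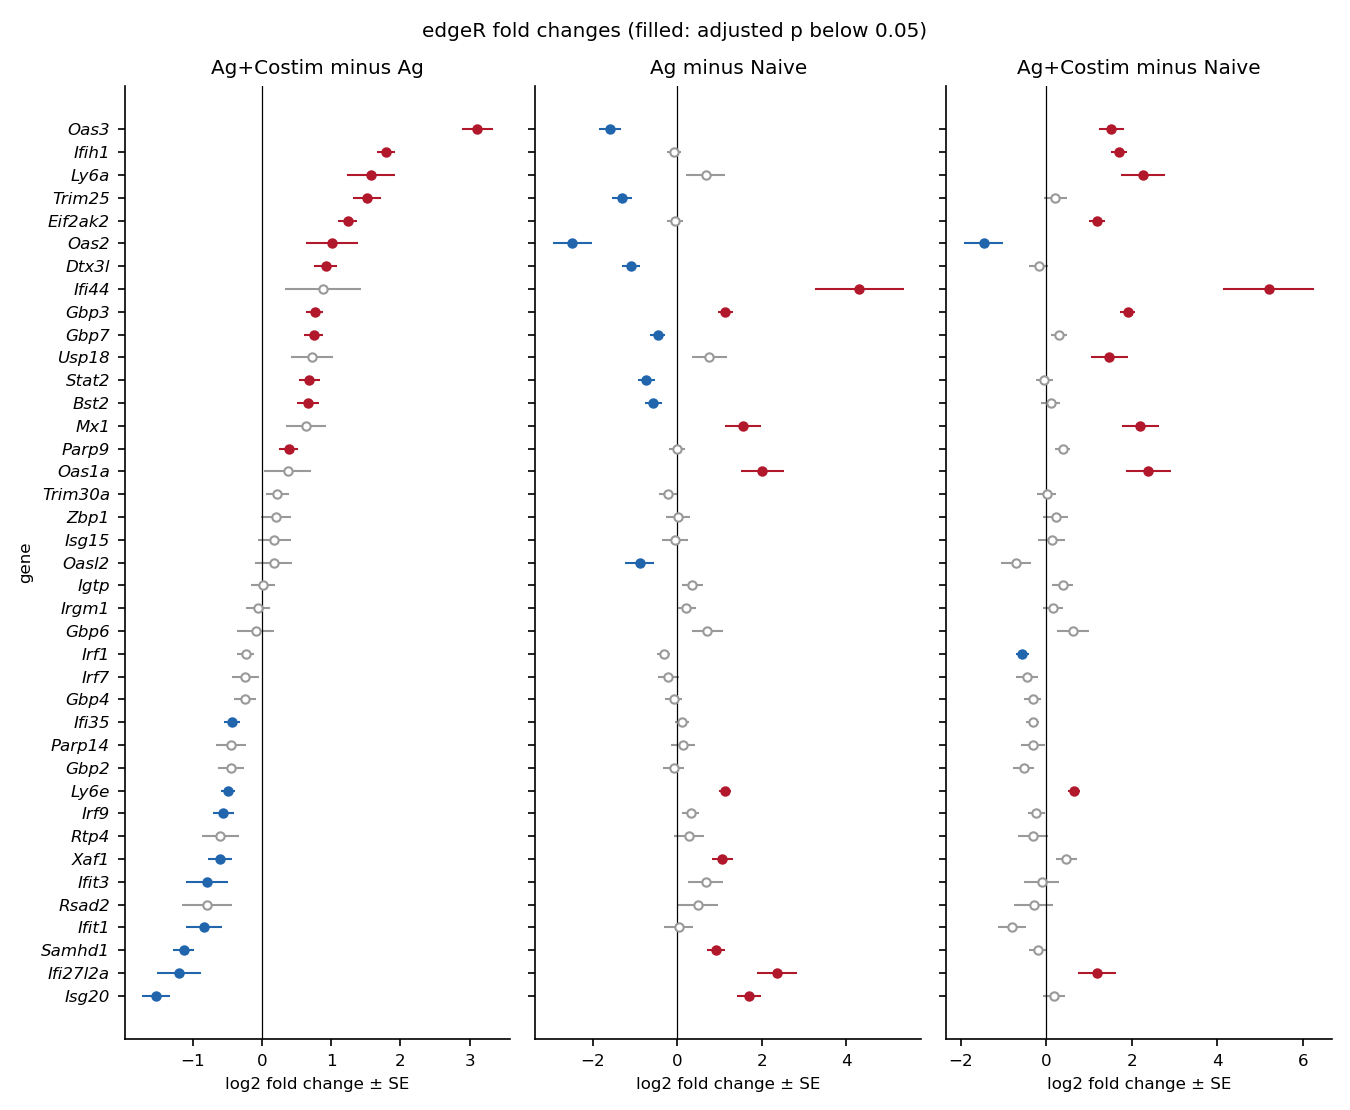
Log2 fold change (x axis, ± SE) of the 39 genes (y axis) in 3 comparisons, with filled points for adjusted p below 0.05 in edgeR (red higher, blue lower) and open points for the rest. Ordered by Ag+Costim minus Ag, the genes run from Oas3 at 3.11 to Isg20 at -1.53, and the x scale differs between panels.

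**Figure D2:**
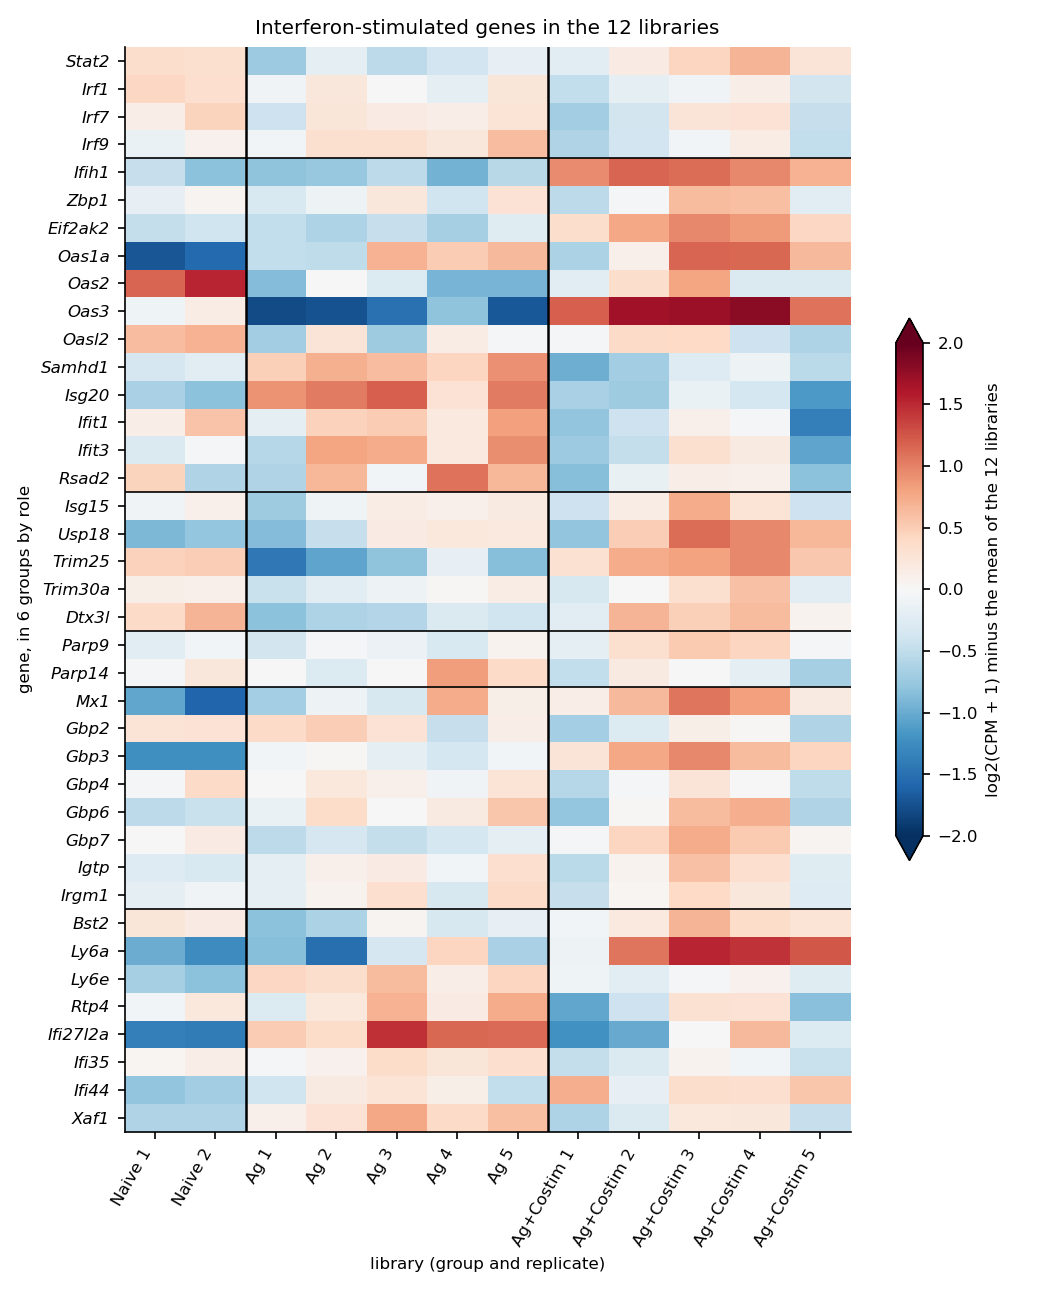
Colour gives log2(CPM + 1) of each gene minus its mean over the 12 libraries, with genes in rows grouped by role and libraries in columns, and values beyond ±2 drawn at the end of the scale. Oas3 and Ifih1 are high in all 5 Ag+Costim libraries, Isg20 and Samhd1 in the Ag libraries.

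The factors that carry the interferon signal did not rise together. Stat2, the partner of IRF9, was at 63.2 and 62.3 CPM in Naive, 29.4, 43.2, 34.2, 37.8 and 44.3 CPM in Ag and 42.3, 55.5, 67.1, 79.8 and 59.4 CPM in Ag+Costim. Both Naive libraries lay above all Ag libraries, and the Ag and Ag+Costim ranges overlapped. It fell in Ag against Naive (-0.73 ± 0.20, adjusted p = 0.00862) and rose in Ag+Costim against Ag (0.69 ± 0.16, adjusted p = 0.00223) and was not called in Ag+Costim against Naive (-0.05 ± 0.21, adjusted p = 0.865). Irf9, which gives the complex its DNA contact, was at 156 and 182 CPM in Naive, 165, 215, 214, 201 and 264 CPM in Ag and 113, 131, 165, 189 and 121 CPM in Ag+Costim. Its highest value was in Ag 5, and it fell in Ag+Costim against Ag (-0.56 ± 0.15, adjusted p = 0.00737), so 2 genes of 1 complex were called in opposite directions. Irf1, a factor induced by IFN-gamma and by the T cell receptor, was at 379 and 357 CPM in Naive, 269, 332, 285, 247 and 336 CPM in Ag and 201, 249.8, 269.6, 309 and 219 CPM in Ag+Costim. The Naive libraries were above all others, and it fell in Ag+Costim against Naive (-0.56 ± 0.16, adjusted p = 0.00932) and was not called in the other comparisons (adjusted p = 0.125 against Ag, and 0.114 for Ag against Naive). Irf7, the factor that amplifies type I interferon, was at 144 and 178 CPM in Naive, 97.1, 153, 146, 142 and 158 CPM in Ag and 79.97, 101, 155, 160.2 and 94.5 CPM in Ag+Costim. Its ranges overlapped between all groups and it was not called in any comparison (adjusted p = 0.326, 0.538 and 0.155). Irf7 and Irf1 overlap other genes on the opposite strand (Phrf1, Gm17334) and Irf9 overlaps Rnf31 on its own strand, and whether counting used the strand is not stated.

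Among the 12 RNA sensors and proteins that act on RNA or nucleotides, 4 rose and 4 fell in Ag+Costim against Ag. Of all genes 26.6% rose and 26.5% fell there. Oas3, an oligoadenylate synthetase that senses double-stranded RNA, had the largest rise of the set. It was at 26.9 and 31.6 CPM in Naive, 7.53, 7.81, 9.53, 15.8 and 8.11 CPM in Ag and 66.2, 93, 95.3, 102 and 61.9 CPM in Ag+Costim. All Ag+Costim libraries were above Naive and both Naive libraries were above all Ag libraries, the highest of which was Ag 4. The log2 fold change was 3.11 ± 0.22, adjusted p = 1.31e-07 in Ag+Costim against Ag, -1.59 ± 0.26, adjusted p = 0.00023 in Ag against Naive and 1.52 ± 0.29, adjusted p = 0.000745 in Ag+Costim against Naive. Ifih1, which encodes the RNA sensor MDA5, was at 11.8 and 8.97 CPM in Naive, 9.08, 9.44, 11.3, 8.23 and 11 CPM in Ag and 33, 38.5, 37.3, 33.4 and 27.7 CPM in Ag+Costim. Naive and Ag overlapped (adjusted p = 0.725) and all Ag+Costim libraries were above both, with a log2 fold change against Ag of 1.79 ± 0.13, adjusted p = 1.72e-07 and against Naive of 1.71 ± 0.19, adjusted p = 6.34e-06. Eif2ak2, the kinase PKR that halts translation on double-stranded RNA, was at 13.7 and 14.6 CPM in Naive, 13.6, 12.4, 13.9, 11.9 and 16.3 CPM in Ag and 25.3, 34.1, 38.9, 36 and 26.5 CPM in Ag+Costim. It showed the same order, with Ag+Costim above both other groups (against Ag 1.24 ± 0.14, adjusted p = 5.29e-06, against Naive 1.18 ± 0.19, adjusted p = 0.00017).

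The other oligoadenylate synthetases shared some of the calls of Oas3. Oas2, called like Oas3 in Ag+Costim against Ag and in Ag against Naive but the other way in Ag+Costim against Naive, was at 6.94 and 9.22 CPM in Naive, 0.943, 2.53, 1.96, 0.87 and 0.866 CPM in Ag and 2.04, 3.52, 5.17, 1.91 and 1.92 CPM in Ag+Costim. Naive was the highest group, and Oas2 was called lower in Ag against Naive (-2.48 ± 0.46, adjusted p = 0.000608) and in Ag+Costim against Naive (-1.47 ± 0.46, adjusted p = 0.0162). Its rise in Ag+Costim against Ag (1.01 ± 0.38, adjusted p = 0.0375) was lost under 11 of 21 alternatives, over which the adjusted p ran from 0.00267 to 0.258, among them the fits without Naive 2, Ag 1, Ag 4, Ag 5, Ag+Costim 2 or Ag+Costim 3 (adjusted p = 0.0502 to 0.125). Without Naive 2 (adjusted p = 0.129) its fall against Naive was lost too. Oas1a was at 8.54 and 9.62 CPM in Naive, 21.3, 21, 49.9, 43.3 and 47.9 CPM in Ag and 19.1, 32.6, 68.8, 68.2 and 48.3 CPM in Ag+Costim. Both antigen groups were above Naive (2.01 ± 0.51, adjusted p = 0.00563 and 2.38 ± 0.52, adjusted p = 0.00182) and overlapped each other (adjusted p = 0.385), and reads can be split between Oas1a and its near-copy Oas1g. The rise of Oas1a in Ag was lost without Naive 1 or Naive 2 (adjusted p = 0.0534 to 0.0639). Oasl2, a synthetase-like protein, was at 14.1 and 15 CPM in Naive, 5.09, 10.8, 5.03, 9.97 and 8.59 CPM in Ag and 8.66, 11.8, 12, 6.42 and 5.43 CPM in Ag+Costim. Both Naive libraries were above the rest, and the call in Ag against Naive (-0.88 ± 0.34, adjusted p = 0.0484) was lost under 11 of 21 alternatives, over which the adjusted p ran from 0.00846 to 0.193, among them the fits without Naive 1, Naive 2, Ag 1, Ag 3, Ag 5 or Ag+Costim 1 (adjusted p = 0.0588 to 0.193).

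Genes of this role that fell with costimulation had their highest group mean in Ag. Isg20, an exonuclease that degrades RNA, was at 19.6 and 17.3 CPM in Naive, 59.2, 65.3, 72.9, 38.2 and 64.9 CPM in Ag and 19.5, 18.6, 28.3, 24.2 and 13.5 CPM in Ag+Costim. All Ag libraries were above all others, with a rise against Naive of 1.70 ± 0.29, adjusted p = 0.000291 and a fall in Ag+Costim of -1.53 ± 0.20, adjusted p = 2.34e-05, and Ag+Costim did not differ from Naive by the test (adjusted p = 0.596). Samhd1, which depletes the nucleotides needed for viral DNA synthesis, was at 311 and 335 CPM in Naive, 545, 645, 604, 529 and 738 CPM in Ag and 199.6, 241, 328, 365 and 269 CPM in Ag+Costim. It followed the same course, with every Ag library above all the rest, a rise of 0.92 ± 0.21, adjusted p = 0.00263 against Naive and a fall with costimulation of -1.13 ± 0.15, adjusted p = 2.98e-05. Ifit1, which binds viral RNA by its 5′ end, was at 46.2 and 63.4 CPM in Naive, 36.9, 58.6, 60.3, 48.7 and 75.6 CPM in Ag and 23.9, 31.3, 45.3, 40.8 and 15.8 CPM in Ag+Costim. Ifit3, its partner, was at 29.99 and 36.3 CPM in Naive, 24.5, 64.5, 62.3, 42.2 and 70.9 CPM in Ag and 21.9, 26.2, 46.1, 41.8 and 17.1 CPM in Ag+Costim. Both fell in Ag+Costim against Ag with overlapping ranges, Ifit1 with a log2 fold change of -0.83 ± 0.26, adjusted p = 0.0154 and Ifit3 with -0.79 ± 0.30, adjusted p = 0.0434. The call of Ifit3, whose reads can be split with Ifit3b, was lost under 10 of 21 alternatives, over which the adjusted p ran from 0.00887 to 0.121, among them the fits without Naive 1, Naive 2, Ag 2, Ag 3, Ag 5, Ag+Costim 1, Ag+Costim 2 or Ag+Costim 5 (adjusted p = 0.0537 to 0.104). Rsad2 (viperin) was at 5.27 to 19 CPM in Ag and 4.22 to 9.37 CPM in Ag+Costim (-0.80 ± 0.36, adjusted p = 0.0777), and passed the test without Ag 1 (adjusted p = 0.0242). Zbp1, a sensor of Z-form nucleic acid, was at 66.8 to 108 and 61.1 to 138 CPM (0.20 ± 0.22, adjusted p = 0.471).

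**Figure D3:**
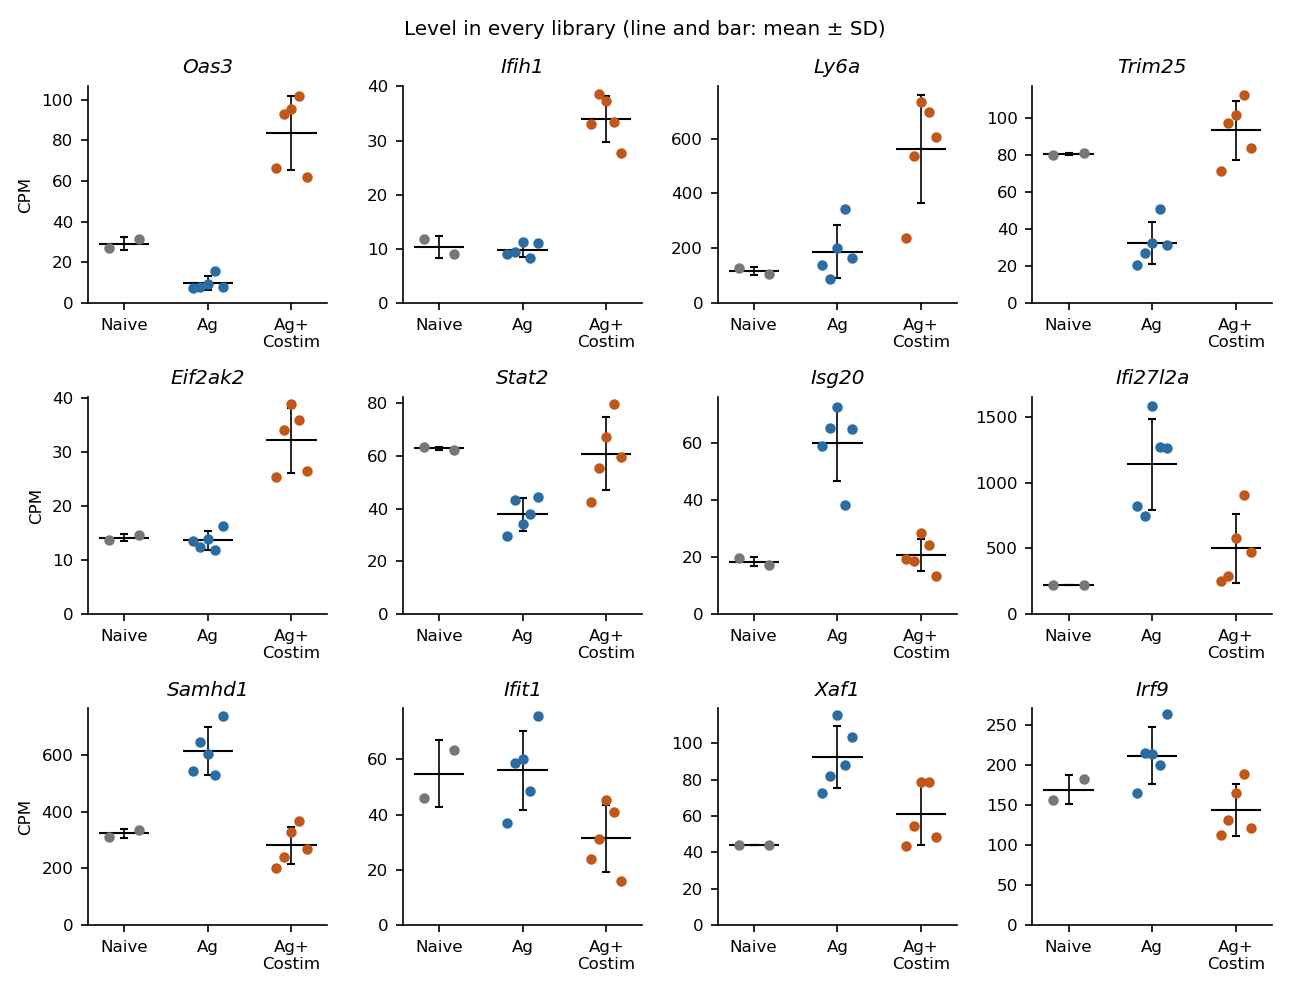
CPM (y axis, from 0) of 12 genes in every library of the 3 groups (x axis), 1 point per library, with a line at the mean and a bar of 1 SD (n = 2, 5 and 5). For Oas3, Ifih1 and Eif2ak2 all Ag+Costim libraries are above all Ag libraries, and for Isg20 and Samhd1 all Ag libraries are above all Ag+Costim libraries.

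Of the 5 genes of the ISG15 and ubiquitin system, 2 rose in Ag+Costim against Ag and none fell. The shares of all genes were 26.6% and 26.5%. Trim25, a ubiquitin ligase that activates the RNA sensor RIG-I, was at 80.1 and 81.2 CPM in Naive, 20.8, 27.2, 32.7, 51.1 and 31.3 CPM in Ag and 71.5, 97.2, 102, 113 and 84 CPM in Ag+Costim. All Ag libraries were below the other groups, with a fall against Naive of -1.31 ± 0.25, adjusted p = 0.000732 and a rise in Ag+Costim of 1.52 ± 0.20, adjusted p = 2.5e-05. Dtx3l, a ubiquitin ligase that pairs with PARP9, was at 61.7 and 76.1 CPM in Naive, 26.2, 30.2, 30.8, 38.3 and 35.3 CPM in Ag and 40.5, 76, 65.3, 73 and 49.1 CPM in Ag+Costim. It moved the same way (-1.10 ± 0.21, adjusted p = 0.000859 and 0.92 ± 0.17, adjusted p = 0.000437), as did Parp9 to a smaller extent in Ag+Costim against Ag (0.38 ± 0.14, adjusted p = 0.0305). Dtx3l and Parp9 overlap on opposite strands, so their reads may not be fully separated. The call of Parp9 was lost under 10 of 21 alternatives, over which the adjusted p ran from 0.00695 to 0.438, among them the fits without Ag 1, Ag 3, Ag 4, Ag+Costim 2, Ag+Costim 3 or Ag+Costim 4 (adjusted p = 0.0504 to 0.0877). Isg15, the ubiquitin-like protein itself, was at 21.1 to 24 CPM in Naive, 13.2 to 25.5 CPM in Ag and 16.4 to 38.1 CPM in Ag+Costim, and was not called in any comparison. Usp18, which removes ISG15 and damps the type I receptor, rose in Ag+Costim against Naive (1.48 ± 0.43, adjusted p = 0.0113), a call lost without Naive 1 or Naive 2 (adjusted p = 0.0735 to 0.0942). Against Ag its log2 fold change was 0.72 ± 0.30, adjusted p = 0.06, which passed the test without Ag+Costim 1 (adjusted p = 0.00296), and in Ag against Naive it passed without Ag+Costim 1 (adjusted p = 0.043). Trim30a, which restrains NF-kB signalling, had log2 fold changes of 0.23, -0.22 and 0.01 in the 3 comparisons. Parp14, an ADP-ribosyl transferase, was not called against Ag (-0.45 ± 0.21, adjusted p = 0.0933), and was called lower there without Ag 2 or Ag+Costim 2 (adjusted p = 0.0419 to 0.0484) and in limma on FPKM.

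Interferon GTPases attack the vacuoles and coats of intracellular pathogens. Of 8 measured, 2 rose in Ag+Costim against Ag and none fell, where 26.6% of all genes rose and 26.5% fell. Gbp3 was at 23.5 and 23.4 CPM in Naive, 53.9, 56.7, 49.2, 43.9 and 54.1 CPM in Ag and 67, 96.4, 109.8, 87.8 and 75.7 CPM in Ag+Costim. It rose at each step, in Ag against Naive (1.14 ± 0.18, adjusted p = 0.000147), in Ag+Costim against Ag (0.76 ± 0.12, adjusted p = 0.000166) and in Ag+Costim against Naive (1.9 ± 0.18, adjusted p = 2.12e-06), and no 2 groups overlapped. No other of the 39 was called higher in all 3 comparisons. Mx1 was at 3.97 and 2.39 CPM in Naive, 5.38, 8.44, 7.13, 16.1 and 10.1 CPM in Ag and 10.1, 15, 20.4, 17 and 10.5 CPM in Ag+Costim. It rose in both antigen groups against Naive (1.56 ± 0.42, adjusted p = 0.00801 and 2.20 ± 0.44, adjusted p = 0.000868) and was not called between them (0.64 ± 0.29, adjusted p = 0.0785), though it was without Ag 4 (adjusted p = 0.00928). Its rise in Ag was lost without Naive 2 (adjusted p = 0.112). Gbp7 rose in Ag+Costim against Ag (0.75 ± 0.14, adjusted p = 0.000437) with no overlap, its levels being 83 to 105 CPM in Ag and 117 to 202 CPM in Ag+Costim. Its fall in Ag against Naive (-0.46 ± 0.18, adjusted p = 0.0494) was lost under 13 of 21 alternatives, over which the adjusted p ran from 0.0113 to 0.771, among them the fits without Naive 1, Naive 2, Ag 1, Ag 2, Ag 3, Ag 4 or Ag+Costim 2 (adjusted p = 0.059 to 0.281). Gbp2 (-0.45 ± 0.19, adjusted p = 0.0568 against Ag) passed the test without Ag 4, Ag+Costim 3 or Ag+Costim 4 (adjusted p = 0.00832 to 0.0427). The log2 fold changes of Gbp4, Gbp6, Igtp and Irgm1 against Ag were -0.24, -0.09, 0.02 and -0.06, none of them called. Gbp4 overlaps Gbp8 and Gbp9, and Igtp overlaps Irgm2, on the same strand.

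The 8 membrane and other proteins held the most abundant members and 2 that rose and 4 that fell with costimulation. Over all genes 26.6% rose and 26.5% fell in Ag+Costim against Ag. By FPKM, Ifi27l2a, a small mitochondrial protein, and Ly6e, a membrane protein that restricts viral entry, led the set in Ag, at 2411 FPKM (1606 to 3190.2) and 2197 FPKM (1928 to 2466), ranges that overlap. Ly6e was the first in Naive at 1133 FPKM (1062 to 1203) with Ifi27l2a at 525 FPKM (522 to 528), and these did not overlap. In Ag+Costim Ly6e was at 1524 FPKM (1376 to 1718), Ifi27l2a at 1026 FPKM (523 to 1861) and Ly6a next at 604 FPKM (254 to 780.2), and Ifi27l2a overlapped both. Ifi44 and Oas2 were the lowest in Ag and Ag+Costim, under 1 FPKM on average. Ifi27l2a was at 222 and 218 CPM in Naive, 822, 748, 1584, 1275 and 1267 CPM in Ag and 249.96, 286, 581, 904 and 475 CPM in Ag+Costim. It rose in Ag against Naive (2.37 ± 0.48, adjusted p = 0.0012) and fell in Ag+Costim against Ag (-1.19 ± 0.32, adjusted p = 0.00635), with overlap between Ag and Ag+Costim. Its rise in Ag+Costim against Naive (1.18 ± 0.44, adjusted p = 0.039) was lost under 11 of 21 alternatives, over which the adjusted p ran from 0.0138 to 0.178, among them the fits without Naive 1, Naive 2, Ag+Costim 3, Ag+Costim 4 or Ag+Costim 5 (adjusted p = 0.0517 to 0.178). Ly6e followed it with a smaller spread, at 1121 to 1252 CPM in Naive, 2165 to 3057 CPM in Ag and 1681 to 2112 CPM in Ag+Costim, and was called in all 3 comparisons (1.14, -0.48 and 0.65).

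Ly6a (Sca-1), a marker of activated and memory T cells, was at 129 and 106 CPM in Naive, 141, 88.8, 202, 345 and 163 CPM in Ag and 237, 535, 732, 699 and 605 CPM in Ag+Costim. It rose in Ag+Costim against Ag (1.58 ± 0.35, adjusted p = 0.0017) and against Naive (2.26 ± 0.51, adjusted p = 0.00234). The Ag+Costim and Ag ranges overlapped through Ag+Costim 1, whose value was under that of Ag 4. Xaf1, a protein that promotes apoptosis, was at 44 and 43.9 CPM in Naive, 72.6, 82.2, 116, 88.2 and 103 CPM in Ag and 43.6, 54.7, 78.5, 78.9 and 48.6 CPM in Ag+Costim. All Ag libraries were above Naive (1.07 ± 0.25, adjusted p = 0.00298), and it fell in Ag+Costim (-0.60 ± 0.18, adjusted p = 0.0108). Ifi44, an antiviral protein, was at 0 and 0.063 CPM in Naive, 0.307, 0.94, 1.07, 0.87 and 0.216 CPM in Ag and 1.85, 0.532, 1.2, 1.16 and 1.53 CPM in Ag+Costim. Naive held 3 counts in all, against 133 in Ag and 267 in Ag+Costim. Taken as independent reads, these give ratios of 21.3 (95% counting interval 7.14 to 105) and 39.8 (13.5 to 194). Ifi44 was called higher in both antigen groups by edgeR (adjusted p = 0.00413 and 0.00118). Bst2 (tetherin), which holds virions at the cell surface, rose in Ag+Costim against Ag (0.67 ± 0.17, adjusted p = 0.00385). Its fall in Ag against Naive (-0.56 ± 0.21, adjusted p = 0.0432) was lost under 10 of 21 alternatives, over which the adjusted p ran from 0.000542 to 0.19, among them the fits without Naive 1, Naive 2, Ag 1, Ag 2, Ag 4, Ag+Costim 2 or Ag+Costim 5 (adjusted p = 0.0505 to 0.19). Ifi35, a regulator of innate signalling, fell in Ag+Costim against Ag (-0.43 ± 0.12, adjusted p = 0.0074). Rtp4, a chaperone of receptors, was not called (-0.60 ± 0.27, adjusted p = 0.0791), and passed the test as lower without Ag 1, Ag+Costim 3 or Ag+Costim 4 (adjusted p = 0.0332 to 0.0414).

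Leaving out single libraries touched further calls. Irf1 in Ag+Costim was called lower than in Ag without Ag+Costim 4 (adjusted p = 0.0392), and its fall against Naive was lost without Naive 1 (adjusted p = 0.0737). The fall of Stat2 in Ag against Naive was lost without Naive 1 or Naive 2 (adjusted p = 0.0531 to 0.0547). Against Naive in Ag+Costim, Ifit1 passed the test as lower without Ag 1, Ag+Costim 3 or Ag+Costim 4 (adjusted p = 0.025 to 0.0489), Gbp2 without Ag 4 or Ag+Costim 3 (adjusted p = 0.0333 to 0.0403), Ifi35 without Ag+Costim 3 (adjusted p = 0.0358), and Parp9 as higher without Ag+Costim 1 (adjusted p = 0.0325).

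Other genes of the pathway were read from a list of 113, of which 103 were tested. In Ag+Costim against Ag 24 rose and 40 fell (26.6% and 26.5% of all genes), with a median log2 fold change of -0.18. In Ag against Naive 32 rose and 22 fell (24.2% and 22.5% of all genes), with a median of 0.30. In Ag+Costim against Naive 31 rose and 28 fell (26.9% and 25.4% of all genes), with a median of 0.15. Of the 9 interferon genes only Ifng was tested. Ifna1, Ifna2, Ifna4, Ifnb1, Ifne, Ifnl2 and Ifnl3 had no counts in any library and Ifnk had 1 count in 1 library. Ifng itself was at 0.576 and 0.966 CPM in Naive, 17, 12.6, 18, 12.9 and 19.5 CPM in Ag and 7.28, 10.5, 10.3, 8.59 and 8.49 CPM in Ag+Costim. All Ag libraries were above all Ag+Costim libraries, which were above Naive, with a rise in Ag against Naive of 4.37 ± 0.31, adjusted p = 2.47e-07 and a fall in Ag+Costim of -0.82 ± 0.17, adjusted p = 0.00127. Ifngr2, a chain of its receptor, was at 50.9 and 51.2 CPM in Naive, 3.2, 3.89, 3.42, 4.31 and 2.91 CPM in Ag and 1.33, 2.24, 3.49, 2.05 and 1.84 CPM in Ag+Costim. It fell in both antigen groups (-3.85 ± 0.26, adjusted p = 1.64e-07 and -4.54 ± 0.26, adjusted p = 2.32e-08). Between them it was called lower in Ag+Costim than in Ag (adjusted p = 0.0156). Socs3, an inhibitor of cytokine signalling, was at 202 and 195 CPM in Naive, 14.6, 17.1, 17.7, 20.4 and 31.1 CPM in Ag and 19.4, 25.9, 21.1, 31.1 and 17.6 CPM in Ag+Costim. It fell as well (-3.30 ± 0.24, adjusted p = 3.65e-07 and -3.10 ± 0.24, adjusted p = 3.11e-07), with no call between Ag and Ag+Costim (adjusted p = 0.441).

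Sensors and regulatory factors of the pathway included some of its largest changes. Cgas, the sensor of cytosolic DNA, was at 5.08 and 5.19 CPM in Naive, 1.82, 2.26, 2.52, 1.07 and 3.08 CPM in Ag and 12, 14.3, 14.8, 12.2 and 11.7 CPM in Ag+Costim. It had the order of Oas3, with Ag the lowest and Ag+Costim the highest group (2.59 ± 0.23, adjusted p = 6.82e-07 against Ag). Irf8 and Irf5, factors best known from myeloid and B cells, rose in Ag against Naive (2.69 ± 0.22, adjusted p = 9.34e-07 and 3.61 ± 0.39, adjusted p = 8.1e-06). Irf8 was at 4.6 to 7.24 CPM in Naive, 31 to 47.9 CPM in Ag and 79.9 to 106 CPM in Ag+Costim, and Irf5 at 0.947 to 1.24, 9.2 to 19.5 and 17.3 to 31.3 CPM. Both were highest in Ag+Costim by their means and were called higher there than in Ag (adjusted p = 8.54e-06 and 0.00635). Between Ag and Ag+Costim the plasmacytoid dendritic cell sum, which counts Irf8, was higher in Ag+Costim, the B cell sum was higher in Ag and the myeloid sums overlapped, and their part in these values was not tested. Znfx1, an RNA helicase, and Slfn8 fell in Ag against Naive (-1.61 ± 0.18, adjusted p = 1.01e-05 and -1.64 ± 0.35, adjusted p = 0.00171). Znfx1 rose in Ag+Costim against Ag (adjusted p = 4.95e-07) and was not called in Ag+Costim against Naive (adjusted p = 0.576). Slfn5 was the fourth largest fall in Ag+Costim against Naive (-1.98 ± 0.31, adjusted p = 0.000121). The fall of Slfn5 in Ag against Naive was lost without Naive 2 (adjusted p = 0.106).

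Of the further interferon-stimulated genes, Serpina3g, a protease inhibitor, rose in Ag+Costim against Ag (1.91 ± 0.32, adjusted p = 0.000173) and against Naive (4.57 ± 0.54, adjusted p = 1.19e-05). Cxcl10, a chemokine, was at 1.58 and 2.16 CPM in Naive, 1.18, 1.07, 1.16, 2.93 and 1.13 CPM in Ag and 7.35, 10.2, 8.17, 3.51 and 4.49 CPM in Ag+Costim. It rose in Ag+Costim against Ag (2.19 ± 0.36, adjusted p = 0.000152), and its rise against Naive was lost without Naive 1 (adjusted p = 0.0763). Cxcl9, the related chemokine, had no counts in Naive, and was at least 30.4-fold higher in Ag and at least 29.8-fold higher in Ag+Costim against a floor of 3 counts per library. Apol9a also had no counts in Naive and was at least 3.75-fold higher in Ag+Costim, a call (adjusted p = 0.0429) that was lost under 10 of 21 alternatives, over which the adjusted p ran from 0.0135 to 0.293, among them the fits without Naive 1, Naive 2, Ag 3, Ag 5, Ag+Costim 2, Ag+Costim 3 or Ag+Costim 5 (adjusted p = 0.053 to 0.157). Ifitm1 was at 0.391 and 0.147 CPM in Naive, 0.68, 0.515, 0.349, 5.34 and 0.361 CPM in Ag and 10.4, 9.29, 7.87, 1.75 and 4.73 CPM in Ag+Costim. Ag 4 stood apart in Ag, and the rises of Ifitm1 in Ag+Costim against Ag (2.29 ± 0.76, adjusted p = 0.0216) and against Naive (4.64 ± 1.30, adjusted p = 0.0087) were lost without Ag 1 (adjusted p = 0.0512) and without Naive 1 or Naive 2 (adjusted p = 0.0518 to 0.0978). Gbp8 (-1.66 ± 0.24, adjusted p = 5.89e-05), Trim12a (-1.48 ± 0.17, adjusted p = 6.19e-06) and Ifi213 (-1.43 ± 0.26, adjusted p = 0.000418) fell in Ag+Costim against Ag, and for all 3 no Ag library was under any Ag+Costim library. The fall of Ifi213 against Naive was lost without Naive 2 (adjusted p = 0.085). Gbp11 had no counts in Ag+Costim or in 3 Ag libraries, with 6.02 and 6.18 CPM in Ag 2 and Ag 5. Its mean was at least 34.9-fold higher in Ag and at least 91.5-fold higher in Naive than that floor, and the calls were lost without Naive 1, Naive 2, Ag 2, Ag 5, Ag+Costim 1, Ag+Costim 2, Ag+Costim 3, Ag+Costim 4 or Ag+Costim 5 (adjusted p = 0.0608 to 0.0764) against Ag, and without Naive 1 or Naive 2 (adjusted p = 0.0809 to 0.0847) against Naive. Slfn8 rose in Ag+Costim against Ag (0.80 ± 0.28, adjusted p = 0.0285), a call lost without Ag 1, Ag 2, Ag+Costim 3 or Ag+Costim 4 (adjusted p = 0.0661 to 0.0708). Against Naive it was called lower in Ag+Costim without Ag 1 or Ag+Costim 4 (adjusted p = 0.023 to 0.0474), and the rise of Apol9a in Ag without Ag 1 or Ag 4 (adjusted p = 0.0311 to 0.0325).

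In some libraries most of the 39 genes lay on the same side of their group mean. In Ag+Costim 3 all 39 were above their group mean on log2 CPM, in Ag+Costim 4 35, in Ag+Costim 2 23, in Ag+Costim 5 5 and in Ag+Costim 1 3. The medians of these deviations were 0.41, 0.30, 0.02, -0.28 and -0.40, while over all 18817 genes 49% to 53% were above the mean in the same libraries. Ag 5 held 34 above the mean, Ag 3 28, Ag 2 20, Ag 4 19 and Ag 1 5, with medians of 0.20, 0.09, 0.01, -0.02 and -0.32, so Ag 2 and Ag 4 were near the shares of all genes (52.9% and 47.9%). The Naive libraries held 14 and 25. The 72 tested genes of the list of further interferon-stimulated genes, none of which is among the 39, had, by the number above the mean, the same libraries at both ends. Of them 67 were above the mean in Ag+Costim 3, 62 in Ag+Costim 4, 7 in Ag+Costim 1, 51 in Ag 5 and 12 in Ag 1. In Ag+Costim the median SD of the 39 over the 5 libraries was 0.39 on log2 CPM, against 0.27 for all genes and 0.15 for the 7686 genes with a mean log2 CPM over 4. In Ag the figures were 0.31, 0.31 and 0.20. The widest of the 39 in Ag+Costim was Usp18, whose highest library was 3.81 times the lowest, and the narrowest was Ly6e at 1.26 times. Ifih1 was the second narrowest at 1.39 times. Ag+Costim 3, the highest for the 39, was also the deepest library with 49294934 counts. Ag+Costim 2 held 47045326, Ag+Costim 4 held 44754280, Ag+Costim 1 held 43144093 and Ag+Costim 5 held 40028682 counts. So in Ag+Costim the 3 libraries highest for the 39 were the 3 deepest. In Ag the order differed, since Ag 1, the lowest for the 39, was the deepest with 45980125 counts. Ag 5, the highest for the 39, held 42652628 counts. The part of depth was not tested.

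**Figure D4:**
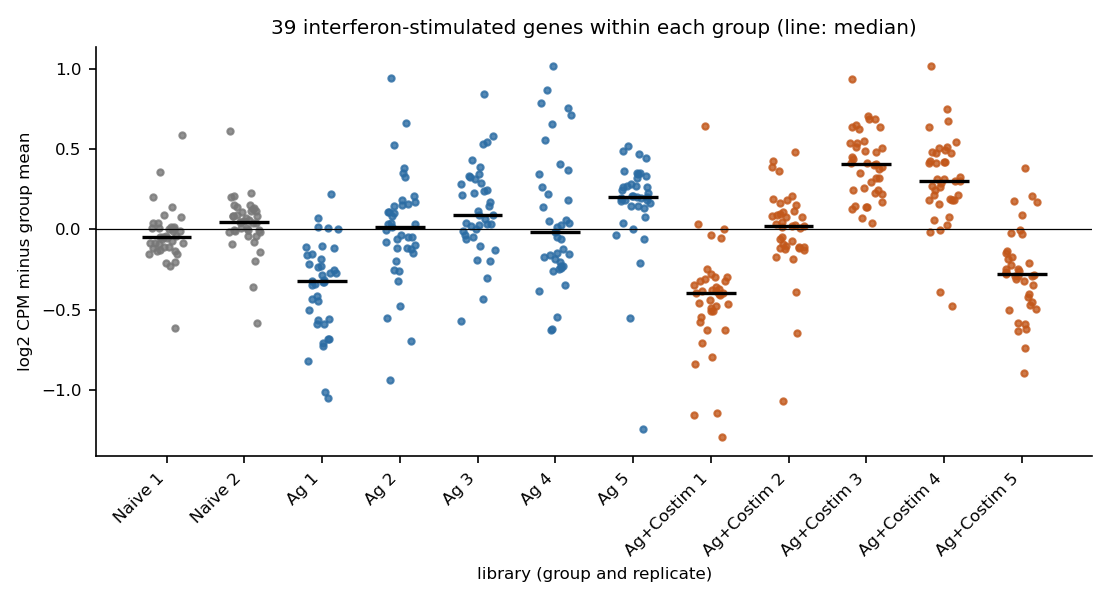
Log2 CPM minus the mean of the same group (y axis) for the 39 genes in each library (x axis), 1 point per gene with a line at the median. All 39 points of Ag+Costim 3 are above 0, and 3 of those of Ag+Costim 1 are.

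By their medians, members that rose with costimulation had longer transcripts than those that fell. The median transcript length, weighted by counts, was 4219 bases for the 12 that rose in Ag+Costim against Ag, 1745 bases for the 9 that fell and 2249 bases for all genes. In Ag against Naive the medians were 2039 bases for those that rose and 4446 bases for those that fell. Across the 39 genes, which are not independent replicates, Spearman's rho of fold change and length was 0.42 for Ag+Costim against Ag, -0.47 for Ag against Naive and -0.08 for Ag+Costim against Naive. Over all genes it was 0.26, -0.26 and -0.01, the same sign as in the 39. In a fit with that trend removed, chosen after the data were seen, 15 of the 21 calls in Ag+Costim against Ag held, 9 in all were higher and 11 lower, and the median became 0.01. Those of Stat2, Gbp7, Ifi35, Oas2, Parp9 and Ifit3 were lost. Usp18 passed as higher, and Rsad2, Parp14, Gbp2 and Gbp4 as lower.

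**Figure D5:**
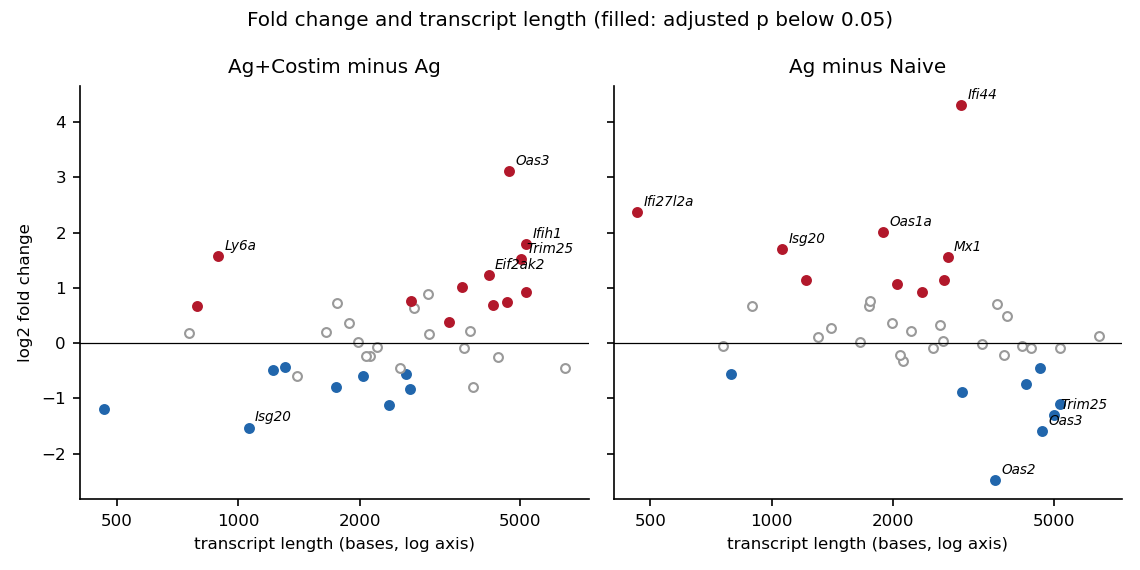
Log2 fold change (y axis) against transcript length in bases (x axis, log scale) for the 39 genes in 2 comparisons, with filled points for adjusted p below 0.05. In Ag+Costim minus Ag the long genes Oas3, Ifih1, Trim25 and Eif2ak2 are at the top, and Ly6a is a short gene beside them.

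Transcript use within the genes was compared as the share of a gene's transcript counts. Of 78 transcripts of 32 members that could be compared, 8 (10.3%) did not overlap between Ag and Ag+Costim, close to the 10.9% among all 23014 transcripts. The 8 belong to Zbp1, Parp14, Ifi35 and Eif2ak2. The largest was in Zbp1, named after its values were seen, a gene whose total level was not called. The short transcript Zbp1-202 (770 bases) held 66.3%, 50.5%, 51.8%, 62.6% and 52.5% in Ag and 23.9%, 20.1%, 21.5%, 24.1% and 26.4% in Ag+Costim. Zbp1-201 (1989 bases) moved the other way, from 40.8% ± 7.10 to 68.7% ± 1.88 (SD, n = 5 each). The exact permutation test gave p = 0.00794 for both, two-sided, which is the smallest that 5 against 5 libraries allow, and 0.0731 after adjustment over all transcripts, the smallest any transcript reached, so no transcript could be called. Naive held 21.9% ± 0.42 (SD, n = 2) of Zbp1-202. In each of the 4 genes the longer of the 2 transcripts that did not overlap took a larger share in Ag+Costim than in Ag. The authors' pooled Psi, the share of reads that include a piece of a gene, for the last exon piece of Zbp1 at chr2:173213735-173213909 (mm10) was 0.876 in Ag and 0.56 in Ag+Costim. Of 334 such pieces in 35 members, 28 (8.38%) differed by more than 0.1 in size, against 7.39% of all 115403.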

How the data were processed

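RNA was measured by single-end sequencing in 12 libraries, and groups follow the labels. By the submitters' processing notes and the methods, reads were aligned to mm10 with HISAT2 2.1.0 and sorted with SAMtools 1.9. The authors deposited whole-number counts per gene and transcript from StringTie 2.1.0, which are derived from coverage. FPKM values per transcript were made by the authors with StringTie and were summed here per gene. Psi, the fraction of reads that include a piece of a gene, was made by the authors with Whippet as 1 pooled value per group. The deposited sequencing sheet gives the reads and the percent aligned of each library (72.3 to 76.5). Identifiers match GENCODE vM21, and strand use in counting is not given in the sources used here.

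Genes passing filterByExpr (18817) were fitted with edgeR 4.0.16 (TMM, quasi-likelihood, group as the only term, all 12 libraries), and calls are at a Benjamini-Hochberg adjusted p below 0.05, two-sided. Values after ± are SE for log2 fold changes and SD elsewhere. Each SE was derived from the log2 fold change and the F statistic of its quasi-likelihood test. DESeq2 1.42.0, limma 3.58.1 on log2(FPKM + 1) and log2(FPKM + 0.1), other scalings, no filter, 2-group fits, the replicate block and leaving out each library were alternatives. The length trend was added after the data were seen. Fits were tested on simulated data. The members, lists and tests were chosen with earlier results of these data known. All 39 members are counted, and values per library are given for the 4 signalling factors and the called members with the largest rises and falls, with the largest pathway changes named. The authors' columns of the Psi difference and its probability are their own comparison and were not used, so a Psi difference of 0.1 in size replaced the planned thresholds. The methods call the libraries biological replicates. Counting intervals and floors (3 counts, 0.0617 to 0.119 CPM by library) cover counting error only. They treat the deposited counts as reads, though Ag 1 held 45980125 counts from 44171082 reads, so the intervals may be too narrow. Of the pathway list, 1 gene is counted but not reported here by name.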

Additional observations from a re-analysis of the deposited data

Results flagged for a closer look

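Of 115 groups of 5 libraries examined, 4 held a library set apart from the other 4 by Dixon's criterion, where chance gives about 1 in 20. Oas3 was at 15.8 CPM in Ag 4, above the other Ag libraries. Irf7 was at 97.1 CPM in Ag 1, below the others. Cxcl10 was at 2.93 CPM and Ifitm1 at 5.34 CPM in Ag 4, both above the others. Ag 4 was also the library with the fewest counts and the highest mitochondrial share (2.28%), and the part of these in its values was not tested.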

How the results depend on the processing

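The counts of members called higher moved by less than 1.5 times under every alternative run. The count called lower in Ag+Costim against Ag became 15 with upper-quartile scaling, which moved the median of all genes to -0.24 and called 33.7% of them lower. In Ag against Naive it became 5 with that scaling, 5 with no low-count filter and 4 with the length trend removed, and 4 to 8 on leaving out single libraries. In Ag+Costim against Naive it became 6 with upper-quartile scaling and 7 in limma on log2(FPKM + 1) and on log2(FPKM + 0.1), where the median was -0.13 in both, and 1 to 5 on leaving out single libraries. Other pathway genes called lower in Ag against Naive were 14 with the length trend removed. On leaving out single libraries they were 20 to 35 higher and 13 to 23 lower in Ag against Naive, and 20 to 35 higher and 18 to 34 lower in Ag+Costim against Naive. With the length trend removed Ifih1 reversed to 0.52 (adjusted p = 0.0442) and Gbp7 to 0.073 (adjusted p = 0.771) in Ag against Naive. Of all genes, 21.2% were lower in Ag against Naive with upper-quartile scaling, 14% with no low-count filter and 17% with the length trend removed. In Ag+Costim against Naive 30% were lower with upper-quartile scaling, 35.8% in limma on log2(FPKM + 1) and 34.9% on log2(FPKM + 0.1). The cause of these moves was not tested. With 2 Naive libraries, each fit without one rests on the other, assumed to vary like the other groups.

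With the replicate number as a block, 13 members were higher and 10 lower in Ag+Costim against Ag, and 5 were lower in Ag+Costim against Naive. Same-numbered libraries did not deviate together by the criterion set (r = 0.0951, 0.0657, 0.0450, 0.0159 and 0.0194), and Ag 4 and Ag 5 correlated best with another number, so the numbers were not taken to pair the libraries.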
